A study of Mus musculus with 2 samples.

Results

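The 3 mouse RUNX genes, their partner Cbfb, the ETO gene Runx1t1 and the Groucho genes Tle1 to Tle4 were followed through mRNA sequencing. The cells, from K-Ras-activated lung cancers, were sequenced before and after a treatment designed to restore Runx3. The 9 genes were selected by symbol, by a rule that uses no measured value but was written with earlier results of these data known, and all 9 were listed among the 23183 genes of each library. KPR- cells are an immortalized line grown from lung cancers of KPR L/F mice without tamoxifen, and their GEO genotype is RUNX3 -/-. These mice carried a Cre-activated oncogenic K-Ras allele, p53 flox alleles, a Runx3 flox allele and a Runx3 Frt-Stop-Frt (FSF) allele, a Tomato reporter and the tamoxifen-activated recombinase FlpERT2. Nasal adenovirus with Cre under the CMV promoter switched on K-Ras and inactivated p53 and the flox copy of Runx3. That Runx3 copy lost an exon rather than the whole gene. Cells of both libraries thus lack p53 and have at most the FSF copy to restore. KPRrestored cells are the same line after 4-hydroxytamoxifen (4-OHT), which activates Flp to cut out the stop cassette, and their GEO genotype is RUNX3 -/+. In GEO the libraries are dated 0 h and 16 h with 1 μM 4-OHT entered for both, and the sources used here do not say whether the line was cloned. Each condition was sequenced as 1 library, so no difference below was set against the spread between cultures, and no p-value was computed.

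RUNX proteins bind DNA through the Runt domain, and CBFβ, which does not bind DNA itself, joins that domain, strengthens its hold on DNA and protects the RUNX protein from degradation. The C-terminal end of RUNX proteins recruits Groucho/TLE co-repressors, so the same factor can raise some genes and lower others. Runx1 is best known for blood formation, Runx2 for bone formation, and Runx3 for T cells, sensory neurons and tumor suppression in epithelia, lung included. Each RUNX gene is read from a distal and a proximal promoter.

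The promoter sequences of RefSeq on GRCm38, from 250 bases before to 50 bases from the annotated start on, covered 8 of the 9 genes. There were 11 windows, and Runx1t1 had none. Runx2 had only its distal window, so its proximal promoter was not searched. They were searched for the RUNX motif TGTGGT on both strands (ACCACA on the other strand). At least 2 matches were found in the distal windows of Runx1, Runx2 and Runx3, and no match in the other 8 windows, whereas 16.8% of all 32851 windows held 1 or more and 1.81% held 2 or more. In the 3 RUNX genes a pair of matches lay in the same direction with 2 bases between them. This spacing was noticed after the windows had been read, and 7 of the 32851 windows (0.0213%) hold such a pair. The pairs are shown with 8 bases on either side, on the strand of the gene and with the motif in capitals, to let the paralogs be compared. They lie at chr16:92826025-92826054 (minus strand), chr17:44814583-44814612 (minus strand) and chr4:135120503-135120532 (plus strand). A match to these letters is a description and does not show that a RUNX protein was bound in these cells.
Runx1: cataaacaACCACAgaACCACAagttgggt
Runx2: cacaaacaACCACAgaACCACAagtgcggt
Runx3: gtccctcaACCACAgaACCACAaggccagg
The pair starts 134 bases before the RefSeq start in Runx3, but 28 bases past it in Runx1 and 23 bases past it in Runx2.

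Runx3, the gene targeted for restoration, lies on chromosome 4 from 135120652 to 135177990 (plus strand, GRCm38). Its promoters are shown because Runx3 transcripts can start at either, while the deposited values hold only 1 number per gene. Which promoter was used in these cells, and where the stop cassette lies relative to them, was not examined. The distal sequence, chr4:135120395-135120644, ends at the base before the RefSeq start. It has 8 CpG dinucleotides, and the motif pair is in capitals. The proximal sequence, chr4:135152295-135152495, ends at the base before the first transcript start annotated there. It has no motif match and holds 28 CpG dinucleotides in 201 bases.
Distal: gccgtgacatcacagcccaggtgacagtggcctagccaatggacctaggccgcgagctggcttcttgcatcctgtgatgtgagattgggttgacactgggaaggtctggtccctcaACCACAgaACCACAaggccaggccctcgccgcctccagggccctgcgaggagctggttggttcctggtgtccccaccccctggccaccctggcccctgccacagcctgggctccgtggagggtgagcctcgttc
Proximal: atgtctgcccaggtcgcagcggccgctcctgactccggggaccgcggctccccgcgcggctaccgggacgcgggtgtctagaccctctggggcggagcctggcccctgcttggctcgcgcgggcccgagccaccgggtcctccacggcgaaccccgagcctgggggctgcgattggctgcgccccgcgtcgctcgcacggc
Over the full 300 bases the proximal window had 45 CpG, more than 98.1% of all windows, and the distal window had 8, against a median of 7.

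The values are FPKM (fragments scaled to transcript length and to the number of mapped fragments), a level per length that allows genes to be compared. The depth, estimated from the steps of low FPKM values, was about 21900000 fragments in KPR- and 22500000 fragments in KPRrestored. The estimated fragments of a gene take its longest transcript with a RefSeq counterpart. A shorter transcript would give fewer fragments, and a longer one more. Every interval is a 95% counting interval (exact Poisson for a level, exact Clopper-Pearson for a difference between the libraries, exact conditional for a change in a ratio) and covers counting error only, not the spread between cultures. Differences are log2(FPKM + 0.005) in KPRrestored minus KPR-, and a gene was called higher or lower at 0.5 or more. In bulk RNA, fewer expressing cells and less RNA per cell cannot be told apart.

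The Runx3 level was the same in both libraries within counting error. Its FPKM was 0.348 in KPR- (interval 0.231 to 0.503, about 28 fragments) and 0.349 in KPRrestored (0.235 to 0.504, about 29 fragments). The log2 difference was 0.0074, with an interval of -0.79 to 0.81, so at this depth a change of either sign within these limits was not detectable. With the shorter coding transcript of 1855 bases the value rested on about 13 fragments in each library, and the interval was -1.27 to 1.19. The Runx3 mRNA value thus does not separate the libraries the way their labels do. A value per gene does not tell transcripts of the FSF allele before Flp from those after it. Nor does it tell them from any transcripts of the flox allele that lost an exon. All directions below are those of the library labelled KPRrestored against the library labelled KPR-.

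Runx3 was by far the lowest of the RUNX paralogs in both libraries. Its level exceeded that of 25.2% of the 16508 genes listed above 0 in at least 1 library, in KPR- as in KPRrestored. Runx1 was at 27.0 times and Runx2 at 26.8 times the Runx3 FPKM in KPR-, and at 30.2 and 20.4 times in KPRrestored. Among all genes, the 3 nearest to Runx3 by Euclidean distance of the log2 levels over the 2 libraries were Fam169a (distance 0.060), B3gat2 (0.072) and Ttc12 (0.079). With only 2 libraries, such nearness says little, and 11 genes lay within a distance of 0.1.

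**Figure D1:**
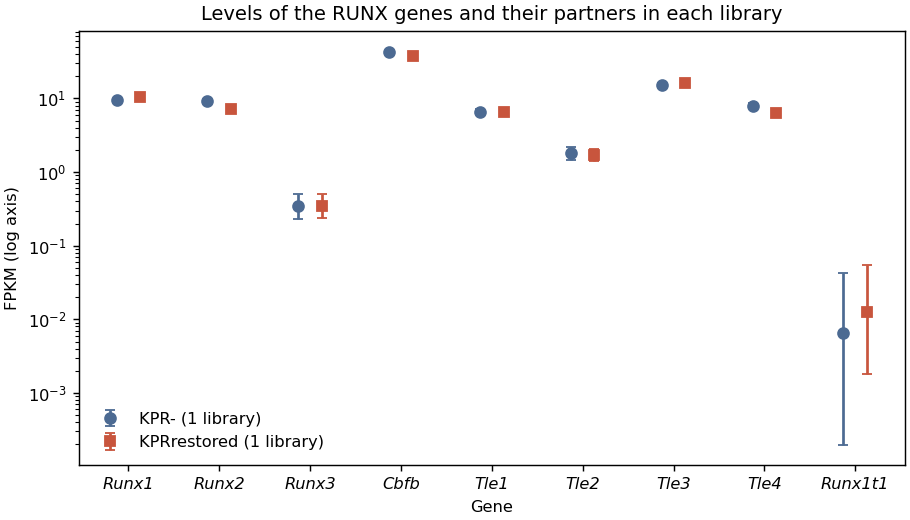
FPKM of the 9 genes on a log axis, with KPR- as circles and KPRrestored as squares (1 library each), and bars for 95% counting intervals. Cbfb is the highest at 42.4 and 37.2, Runx3 sits at 0.348 and 0.349, well under Runx1 and Runx2, and Runx1t1 is near 0 with bars that span more than the distance between its points.

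Runx1, which drives definitive blood formation and is also made in many epithelia, spans 92601466 to 92826149 of chromosome 16, on the minus strand. Its FPKM was 9.40 in KPR- (8.86 to 9.95) and 10.5 in KPRrestored (9.99 to 11.1). The library labelled KPRrestored was thus 1.12 times as high, a log2 difference of 0.17 with an interval of 0.052 to 0.28. The intervals of the levels do not overlap, but with the shortest RefSeq coding transcript of 1985 bases the interval of the difference was -0.039 to 0.37 and includes 0.

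Runx2, the master regulator of osteoblasts, spans 44495987 to 44814797 of chromosome 17, also on the minus strand. Its level was 9.32 FPKM in KPR- (8.81 to 9.84) and 7.15 in KPRrestored (6.71 to 7.61). This is 0.767 times the KPR- level and a log2 difference of -0.38, the lowest of the 9 genes. The interval of -0.50 to -0.26 excludes 0, and with the shortest RefSeq coding transcript of 2987 bases it was -0.56 to -0.20. With the shortest coding model of any kind (440 bases, about 47 and 37 fragments) it was -1.05 to 0.27.

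The make-up of the family therefore differed between the libraries at a similar sum. Summed over the 3 paralogs, RUNX FPKM was 19.1 in KPR- and 18.0 in KPRrestored. Runx1 made up 49.3% of that sum in KPR- and 58.4% in KPRrestored, while Runx2 made up 48.9% and 39.6%. Runx3 made up 1.82% and 1.94%. The ratio of Runx1 to Runx2, which no scaling of a whole library can move, was 1.01 in KPR- and 1.48 in KPRrestored, a log2 change of 0.55 with an interval of 0.38 to 0.72. In KPR- the intervals of the Runx1 and Runx2 levels overlapped, and in KPRrestored they did not. Runx1 and Runx2 had the highest and the lowest difference of the 3 paralogs, and the interval of their ratio takes no account of that. It uses the longest RefSeq transcripts only. Changes in ratio were not computed for genes outside those followed here, so the 0.55 has no background. Of single genes of 1 FPKM or more with estimated fragments, 67.5% had a difference whose interval excluded 0.

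**Figure D2:**
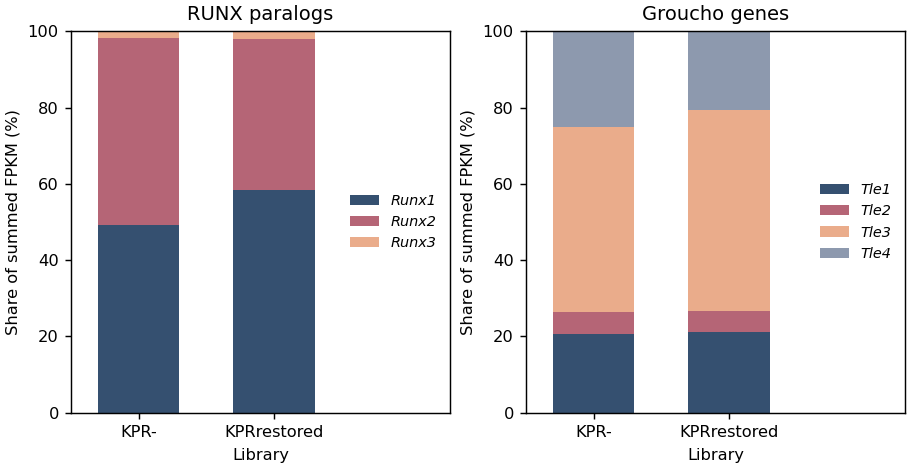
Share of the summed FPKM in percent, per library, for the 3 RUNX paralogs (left) and the 4 Groucho genes (right), without error bars. Runx1 goes from 49.3% to 58.4% as Runx2 goes from 48.9% to 39.6%, Runx3 is a thin band of 1.82% and 1.94%, and Tle3 holds 48.5% and 52.8% of the Groucho sum.

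Cbfb, which encodes the shared partner CBFβ, lies on chromosome 8 from 105170674 to 105217989 (plus strand). It had the highest level of the 9 genes, at 42.4 FPKM in KPR- (40.8 to 44.1) and 37.2 FPKM in KPRrestored (35.7 to 38.8). The log2 difference was -0.19 with an interval of -0.27 to -0.11. Cbfb mRNA exceeded the summed RUNX mRNA 2.23 times in KPR- and 2.06 times in KPRrestored, and it exceeded Runx3 mRNA 122 and 106 times. Relative to Runx1 it was lower in the library labelled KPRrestored by a log2 change of -0.36 (-0.50 to -0.21). Relative to Runx2 it was higher by 0.19 (0.046 to 0.34), so the difference of Cbfb lay between those of Runx1 and Runx2.

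The Groucho genes encode co-repressors without a DNA-binding domain of their own, which are brought to genes by RUNX, HES, TCF/LEF and other factors. Tle3 (chromosome 9, 61372366 to 61418497, plus strand) was the most abundant, at 15.4 FPKM in KPR- and 16.4 FPKM in KPRrestored. Its log2 difference of 0.086 had an interval of -0.017 to 0.19, which includes 0. Tle1 (chromosome 4, 72117142 to 72200919, minus strand) had 6.60 and 6.56 FPKM, a log2 difference of -0.0070 (-0.17 to 0.16). Tle2 (chromosome 10, 81574561 to 81590845, plus strand) was the least abundant, with 1.82 and 1.71 FPKM and a log2 difference of -0.088 (-0.50 to 0.33). None of these 3 genes differed by more than the counting error.

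Tle4 (chromosome 19, 14448150 to 14598051, minus strand) was the exception among the Groucho genes. It had 7.98 FPKM in KPR- (7.42 to 8.57) and 6.36 FPKM in KPRrestored (5.86 to 6.88). This is 0.797 times the KPR- level, a log2 difference of -0.33 with an interval of -0.48 to -0.17. The ratio of Tle3 to Tle4 was 1.93 in KPR- and 2.57 in KPRrestored, a log2 change of 0.41 (0.23 to 0.60). Tle3 and Tle4 had the highest and the lowest difference of the 4 Groucho genes, and this interval takes no account of that. The sum of the 4 genes was 31.8 and 31.0 FPKM, or 1.67 and 1.72 times the RUNX sum.

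Runx1t1 (chromosome 4, 13743436 to 13893649, plus strand) encodes ETO, a co-repressor that is best known as the fusion partner of RUNX1 in acute myeloid leukemia. It was nearly silent, at 0.00648 FPKM in KPR- and 0.0126 FPKM in KPRrestored, from about 1 and 2 fragments. The ratio of these values was 1.94, with a log2 counting interval of -3.30 to 6.84. The log2 difference of 0.61 therefore passed the threshold without being readable as a change.

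In the order of levels, KPR- ran from Cbfb through Tle3, Runx1, Runx2, Tle4, Tle1, Tle2 and Runx3 to Runx1t1. In KPRrestored the order was the same except that Tle1 came before Tle4. Neighbours whose intervals overlapped were Runx1 and Runx2 in KPR-, and Runx2 and Tle1 as well as Tle1 and Tle4 in KPRrestored.

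Against the background of all genes, the 9 genes stood out little. Of the 9, 1 gene (Runx1t1) was called higher and 0 were called lower, where 19.3% of the 16508 genes listed above 0 were called higher and 18.2% lower. The 7 members with a mean level of 1 FPKM or more included none past the threshold, where 12.1% of the 11231 such genes were called higher and 9.29% lower. The median log2 difference was -0.088 over these 7 and 0.0086 over the 11231 genes. Their differences lay within the quartiles of those genes (-0.23 and 0.27) for 5 members, and below them for Runx2 (percentile 14.2) and Tle4 (percentile 17.7). The counting interval excluded 0 on the higher side for Runx1 and on the lower side for Runx2, Cbfb and Tle4. Among the 10791 genes of this level with estimated fragments it did so for 34.4% and 33.1%, so an interval without 0 was common in these libraries.

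**Figure D3:**
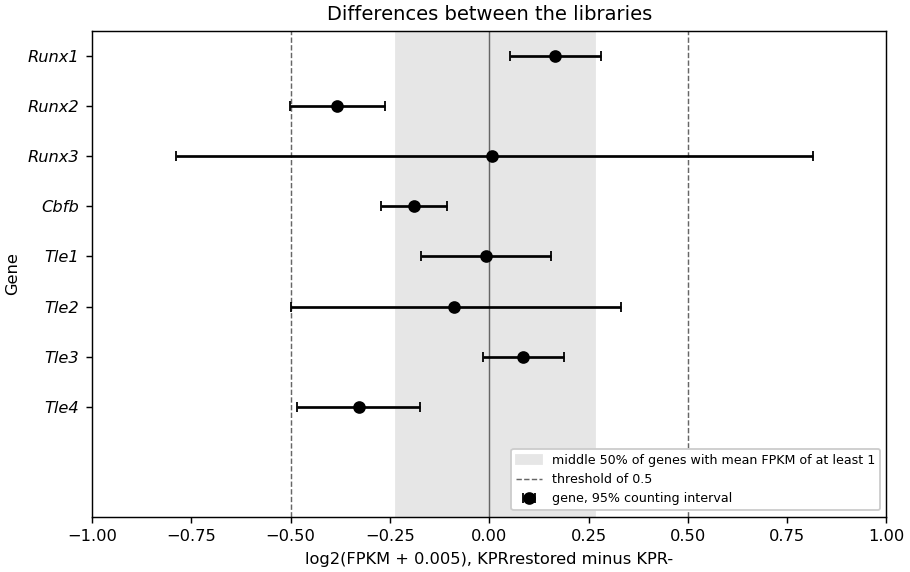
Difference of log2(FPKM + 0.005) between the libraries for 8 genes, with 95% counting intervals as bars, the middle 50% of genes with a mean level of 1 FPKM or more as a grey band, and the threshold of 0.5 as dashed lines. Runx2 at -0.38 and Tle4 at -0.33 lie left of the band, Runx3 sits at 0.0074 with a bar past both dashed lines, and Runx1t1 is left out because its bar runs from -3.30 to 6.84.

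Epithelial markers were abundant in both libraries, while the surfactant and club cell genes were listed at 0. All 6 epithelial markers were above 1 FPKM in both libraries, with Krt8 at 1711 and 1631 FPKM, and 3 had a difference below 0 and 3 above. The 1 epithelial marker past the threshold was Cldn4, a tight junction gene, at 106.7 and 202.1 FPKM (0.92, interval 0.86 to 0.98). That is 16.7% of the 6 markers, beside 12.1% called higher among all genes with a mean level of 1 FPKM or more. Of 8 lung lineage markers, Sftpc, Sftpb, Sftpa1 and Scgb1a1 were listed at 0 in both libraries, and the sum over the list was 3.62 and 1.60 FPKM. Most of that sum was Foxj1, a ciliated cell gene, at 2.78 and 0.656 FPKM (-2.07, interval -2.64 to -1.53), and Ager, an alveolar type I gene, at 0.708 and 0.920 FPKM. RUNX genes are also strongly expressed in leukocytes, so their markers are given beside them. Of 6 leukocyte markers, Cd3e was listed at 0 in both libraries, and Ptprc, the pan-leukocyte CD45 gene, had 0 and about 1 fragment. The list summed to 5.81 FPKM in KPR- and 8.01 FPKM in KPRrestored. The 2 leukocyte markers with a mean level of 1 FPKM or more differed in opposite directions, Cd68 at 3.08 and 6.78 FPKM (1.13) and Csf1r at 2.68 and 1.19 FPKM (-1.17). The 4 endothelial markers summed to 1.19 and 2.24 FPKM, of which Kdr had 1.10 and 2.05 FPKM (0.89). Pecam1 (0.060 and 0.029 FPKM) and Vwf (0.032 and 0.021 FPKM) had differences below 0, with intervals that include 0. Cdh5 had a difference above 0, from 0 and about 12 fragments. The 5 fibroblast markers summed to 12.7 and 5.33 FPKM. Col1a1 made up most of it at 12.2 and 4.21 FPKM, while Col1a2 was low at 0.046 and 0.018 FPKM (about 5 and 2 fragments). Dcn had the opposite direction to Col1a1 at 0.173 and 0.742 FPKM (interval 0.76 to 3.65), and Lum was listed at 0 in both. Pdgfra had 0.273 and 0.363 FPKM, and the intervals of Col1a2 and Pdgfra include 0. The part of such cells in the RUNX and Groucho values was not tested.

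Relatives of the co-repressors outside the 9 genes were mostly at similar levels in both libraries. Cbfa2t2, an ETO relative, had 7.03 and 7.89 FPKM, a log2 difference of 0.17 (0.037 to 0.30). Cbfa2t3, the other ETO relative, was low at 0.0248 and 0.0781 FPKM (about 4 and 13 fragments), and the interval of its difference, -0.033 to 3.74, includes 0. Aes (Tle5), a short Groucho protein that lacks the WD40 domain, was far more abundant than Tle1 to Tle4, at 207.8 and 220.6 FPKM, a difference of 0.086 (0.033 to 0.14). Tle6 had 2.18 and 2.49 FPKM.

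The proteins that RUNX and Groucho work with were described by 3 further lists, which like the first were written with earlier results of these libraries known. Of 14 co-repressor partners, all with a mean level of 1 FPKM or more, 0 were past the threshold, beside 12.1% higher and 9.29% lower among all genes of that level, and the median difference was -0.056. Sin3b, a scaffold of histone deacetylase complexes, had a difference of 0.39 (52.4 and 68.9 FPKM), Gps2 of 0.25 and Hes1 of -0.28. Of 12 co-activators and DNA-binding partners, 1 was higher by 0.5 or more and 0 were lower. A difference below 0 was found for 10 of them, with a median of -0.23, against 0.0086 over all genes of that level. As the list was written with earlier results known, this is a description. The 8.33% called higher does not exceed the 12.1% of all genes of that level. Cebpb, a partner of RUNX factors on many enhancers, was at 48.2 and 132 FPKM, a log2 difference of 1.45 (1.36 to 1.54).

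The Hippo effectors Yap1 and Wwtr1, which bind RUNX proteins, went opposite ways, with differences of -0.31 and 0.31, and so Yap1, which the naming rule did not pick, was chosen after its value was seen. Kat6a, a histone acetyltransferase that binds RUNX1, was at -0.45 (13.6 and 9.97 FPKM), and the arginine methyltransferase gene Prmt1 was at -0.34. Of 17 enzymes that modify RUNX proteins or silence RUNX3, 0 were higher and 1 was lower by 0.5 or more, with a median of -0.16. The 5.88% called lower does not exceed the 9.29% of all genes of that level. The lower gene was Dnmt1, the maintenance DNA methyltransferase, at 67.0 and 42.6 FPKM and a difference of -0.65 (-0.70 to -0.60). The ubiquitin ligase gene Nedd4 was at -0.44, while Mdm2, whose product ubiquitinates RUNX3, and Pim1, a kinase of RUNX proteins, were at 0.44 and 0.43, all under the threshold.

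Genes that textbooks name as RUNX targets in bone, blood and epithelia differed in both directions. The list was written with earlier results of these data known, so its counts are a description. Of 24 such genes, 13 had a mean level of 1 FPKM or more. Of these 13, 4 were called higher and 3 lower, or 30.8% and 23.1%, beside the 12.1% and 9.29% of all genes at that level given above, with a median of 0.22. The 4 higher genes were Mmp13, Cdkn1a, Csf2 and Cldn1, and the 3 lower genes Col1a1, Csf1r and Alpl, of which Csf2, Cldn1 and Alpl were named after their values were seen. Col1a1 and Csf1r are also on the marker lists.

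Mmp13, a collagenase gene that Runx2 activates in bone, had 8.99 FPKM in KPR- and 46.6 FPKM in KPRrestored, a log2 difference of 2.37 (2.23 to 2.52). Csf2, the GM-CSF gene with RUNX sites in its enhancer and promoter, had 16.6 and 46.0 FPKM, a difference of 1.47 (1.24 to 1.70). Cdkn1a, which encodes the cell cycle inhibitor p21, had a difference of 1.48, and Cldn1, a tight junction gene, of 0.81. On the lower side stood Col1a1, the type I collagen gene, at 12.2 and 4.21 FPKM (-1.53), Csf1r, the M-CSF receptor gene, at 2.68 and 1.19 FPKM (-1.17), and Alpl, the bone alkaline phosphatase gene, at 1.66 and 0.767 FPKM (-1.11). Col1a1 and Alpl, like Mmp13, are bone targets of Runx2, and were lower where Mmp13 was higher. Spp1, another bone target that was named after its value was seen, was at 1667 and 1850 FPKM, a difference of 0.15. The lineage-restricted targets Bglap, Ibsp, Il3, Mpo and Cd8a were listed at 0 in both libraries. No value here ties the level of any of these genes to a RUNX protein, and the effects of restoration, of 4-OHT and of hours in culture cannot be told apart with these libraries.

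**Figure D4:**
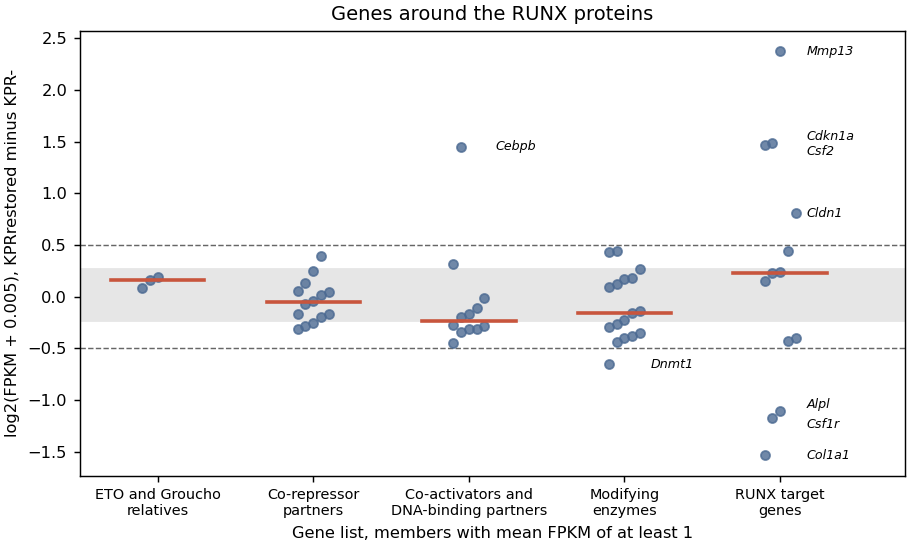
Difference of log2(FPKM + 0.005) between the libraries for each gene with a mean level of 1 FPKM or more in 5 lists of genes around the RUNX proteins, with list medians as red bars, the middle 50% of all such genes as a grey band and the threshold of 0.5 as dashed lines. Names mark the genes past the threshold, of which 7 are RUNX target genes, from Mmp13 at 2.37 to Col1a1 at -1.53.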

How the data were processed

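The authors removed adapters and low-quality reads from paired-end reads, mapped them using TopHat (to mm10, per the submitters' processing notes) and deposited FPKM values estimated using Cufflinks, 1 value per gene and library. Versions and annotation are not given in the sources used here. The kit was directional, but whether strand was used in counting is not given, and exons of Runx1, Runx2, Tle1 and Tle2 overlap antisense genes over 98 to 519 bases.

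Positions and transcript lengths came from GENCODE M21 (GRCm38, the assembly of mm10). The depth and a mean fragment length of 210 bases were fitted to genes of a single transcript length so that low FPKM values became whole fragments. In the range of 0.5 to 5.5 fragments, 76.8% (KPR-) and 78.6% (KPRrestored) of these genes lay within 0.1 of a whole number. The FPKM were not rescaled. Totals were 521340 and 523647 FPKM, and 6675 genes were listed at 0 in both libraries. The alternatives were other pseudocounts, a filter on mean FPKM, a threshold of 1, scalings and other transcript lengths. The members and lists were chosen with earlier results of these data known. The named genes are the members, the 2 largest rises and 2 largest falls of each list at a mean level of 1 FPKM or more (the list of relatives is given whole) and the 3 genes nearest to Runx3. Of these, 1 gene is not reported here. Computation used scipy 1.17.1, numpy 2.4.6 and pandas 2.3.3 under Python 3.11.15, and plots matplotlib 3.10.9.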

Additional observations from a re-analysis of the deposited data

How the results depend on the processing

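The count of genes called higher was 1141 with a pseudocount of 1, 1358 with a mean FPKM of at least 1 and 1625 with a threshold of 1, against 3193 with the pseudocount of 0.005 and the threshold of 0.5 used above. Under the same settings the count called lower was 836, 1043 and 1527, against 3002. These settings shrink or drop low genes or raise the threshold by construction. The 1 member called higher, Runx1t1, became 0 with a pseudocount of 0.1 or 1, with the filter on mean FPKM and with a threshold of 1. No member was called lower under any of these settings or scalings. The sign of the Runx3 difference turned with centring on the median gene (-0.0012) and with scaling to the same upper quartile (-0.034), and the other 8 members kept their sign. The scalings moved the median gene by -0.042 at most. With the shortest coding transcript, 2 members (Cbfb and Tle4) had a counting interval without 0, and with the shortest RefSeq coding transcript, an alternative chosen after seeing the data, 3 members (Runx2, Cbfb and Tle4), against 4 with the longest RefSeq transcript. Shares and ratios within a library do not move with scaling. No paired analysis was possible because each group has 1 library.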
